A study of Mus musculus with 9 samples.

Results

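The genes described here encode semaphorins, ephrins, Slits and netrins, together with the plexins, neuropilins, Eph receptors, Robos and Unc5 proteins that receive them. They were taken by gene symbol, whatever their values, and made up 73 of the 56263 genes of the table, of which 70 code for proteins and 3 (Plxna4os1, Plxna4os2 and Plxna4os3) are transcripts antisense to Plxna4. Lungs of male wild-type BALB/c mice, an inbred strain aged 6 to 8 weeks at purchase, gave 3 RNA libraries in each of 3 groups. QJHTD mice (Q1 to Q3) were exposed 3 times daily, for 30 min each, to smoke from 6 cigarettes over a study of 42 days, received 20 µg of lipopolysaccharide (LPS, a bacterial endotoxin) into the trachea on days 1 and 14, and were given Qing-Jin-Hua-Tan decoction (QJHTD, a herbal medicine) by gavage before the daily exposure, at the highest dose of the study. Model mice (M1 to M3) had the same smoke and LPS with vehicle, as a model of chronic obstructive pulmonary disease (COPD), and control mice (C1 to C3) had vehicle without smoke or LPS. The study held 8 mice per group, and the labels do not say that each library is a separate mouse, so p values measure the spread between libraries, which may in part be technical.

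Guidance molecules were first known for steering axons and act in the lung on the branching of airways, the patterning of vessels and the movement of leukocytes. Semaphorins signal through plexins, and most secreted class 3 semaphorins need a neuropilin as co-receptor. Ephrins are held in the membrane of 1 cell and bind Eph receptors on its neighbor, so that both cells can receive a signal. Slits bind Robos, and netrins bind Dcc, neogenin and the Unc5 receptors.

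Values are TPM, which relate the reads of a gene to its length and to all reads of its library, so that levels may be compared between genes, while the depth of the libraries is unknown. Immunoglobulin and T-cell receptor segments took 36.8 to 43.7% of all TPM in the QJHTD libraries and 36.2 to 42.9% in the model libraries, against 0.296 to 0.605% in the control libraries. This lowers the TPM of every other gene in the QJHTD and model libraries. Club cell markers went the other way and lower other genes in control libraries. Summed over 5 genes, they had 14361 to 21548 TPM in QJHTD, 12259 to 33809 in model and 221900 to 249696 in control libraries. In model against control lungs the 16080 genes tested had a median log2 fold change of −0.47. It was 0.01 after each library was rescaled by the median ratio of its genes, a step that brings this median near 0 by construction. Values of that rescaling are therefore given beside the deposited scale. A gene was said to rise or fall where limma, fitted to log2(TPM + 1) of each gene that reached 1 TPM or more in 3 libraries or more, gave a Benjamini-Hochberg adjusted p under 0.05. The log2 fold changes refer to TPM + 1 and understate the change of low genes.

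The tissue carried the markers of lung. Summed over 7 genes, alveolar type 2 cells had 15794 to 18044 TPM in QJHTD, 14613 to 16552 in model and 24460 to 37513 in control libraries, and no marker of any cell type list stayed at or below 0.1 TPM in all libraries. All 12 markers of endothelium fell in the model group, with sums of 415 to 538 TPM in QJHTD, 358 to 401 in model and 2681 to 2984 in control libraries. All 7 neutrophil markers rose, with sums of 4334 to 7970, 6365 to 13475 and 152 to 351 TPM in the same order of groups, and all 4 plasma cell markers rose. Of all genes tested, 16.6% rose and 56.5% fell, the shares beside which marker counts here and below stand. In bulk tissue, fewer cells of a type and less RNA per cell cannot be told apart. M2 and Q1 had the lowest summed ciliated-cell markers of their groups, at 98.0 and 107 TPM (highest 278 in model and 179 in QJHTD). They also had the highest share of segments, M2 with 42.9% of TPM (M1 36.5%, M3 36.2%). Q1 had 43.7% (Q2 37.8%, Q3 36.8%). Counts without M2 and Q1 are given below. Markers of heart muscle were at 16.1 to 329.6 TPM in QJHTD, 19.2 to 135 in model and 443 to 1622 in control libraries. The part that these shifts have in the results was not tested.

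In GRCm38, Sema4d lies at chr13:51685529-51793747 and Sema4a at chr3:88435959-88461182, both on the minus strand, Sema3g at chr14:31217860-31230352 on the plus strand and Efnb2 at chr8:8617434-8661242 on the minus strand. Promoters are shown for these, the pair of guidance genes that rose most and the pair that fell most in the model group, as RefSeq gives them for GRCm38.p6, from 250 bases before to 50 after the start of transcription. Of the guidance genes, 60 had such a window (76 windows). Capitals mark matches on either strand to AP-1 (TGANTCA), NF-kB (GGGA, then any 4 bases, then CC), the hypoxia response core (ACGTG or GCGTG), ETS (CCGGAA) or the TATA box (TATAAA). Of 3 windows for Sema4d and 4 for Sema4a, of which some overlap, the one printed was chosen for its matches and is at chr13:51748761-51749060 and at chr3:88459052-88459351, both on the minus strand. Those of Sema3g and Efnb2 are at chr14:31217623-31217922 on the plus strand and chr8:8661193-8661492 on the minus strand.
Sema4d: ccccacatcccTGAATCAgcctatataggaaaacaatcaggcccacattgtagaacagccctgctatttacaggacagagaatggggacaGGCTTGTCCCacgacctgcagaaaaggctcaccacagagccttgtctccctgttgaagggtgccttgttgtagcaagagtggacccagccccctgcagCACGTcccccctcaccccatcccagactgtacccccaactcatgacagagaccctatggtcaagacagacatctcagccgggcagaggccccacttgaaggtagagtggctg
Sema4a: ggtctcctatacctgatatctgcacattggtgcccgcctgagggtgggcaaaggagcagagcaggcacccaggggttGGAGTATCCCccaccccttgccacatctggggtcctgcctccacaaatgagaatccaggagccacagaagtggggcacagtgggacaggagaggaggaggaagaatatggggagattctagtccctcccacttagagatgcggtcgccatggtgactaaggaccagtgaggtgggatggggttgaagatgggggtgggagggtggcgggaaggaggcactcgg
Sema3g: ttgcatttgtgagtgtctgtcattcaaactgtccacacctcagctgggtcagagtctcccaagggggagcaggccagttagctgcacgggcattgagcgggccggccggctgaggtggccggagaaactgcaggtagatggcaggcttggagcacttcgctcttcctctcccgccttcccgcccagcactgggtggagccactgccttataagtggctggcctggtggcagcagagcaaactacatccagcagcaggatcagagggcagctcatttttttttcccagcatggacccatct
Efnb2: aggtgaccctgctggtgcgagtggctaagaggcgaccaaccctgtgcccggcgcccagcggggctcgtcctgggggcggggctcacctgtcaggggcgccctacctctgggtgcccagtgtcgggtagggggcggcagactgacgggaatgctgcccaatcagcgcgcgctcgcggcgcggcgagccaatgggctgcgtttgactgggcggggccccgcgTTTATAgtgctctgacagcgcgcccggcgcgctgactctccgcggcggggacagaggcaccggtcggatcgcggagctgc
The Sema4d window held 1 AP-1 match, 1 NF-kB match and 1 hypoxia core, that of Sema4a 1 NF-kB match, that of Efnb2 a TATA box on the reverse strand, and that of Sema3g no match. The 12 windows of genes that rose come from 6 genes, with several each of Sema4a and Sema4d, so they are not separate cases. The 40 windows of genes that fell come from 34 genes. An NF-kB match lay in 5 of 12 windows (41.7%) of genes that rose in the model group, in 10 of 40 (25.0%) of those that fell and in 20.7% of all 32851 promoters. AP-1 lay in 8.33% of the windows of risers, 2.5% of those that fell and 7.81% of all, the hypoxia core in 41.7%, 52.5% and 43.8%, ETS in 16.7%, 10% and 14.9%, and the TATA box in 0%, 5% and 13.6%. The median number of CpG dinucleotides was 6 in windows of genes that rose, 17.5 in windows of genes that fell and 7 in all promoters. Among genes that rose, the windows of Sema4a and Sema4d held 2 to 14 and that of Ntn5 held 3. Those of Nrp2 (37), Plxnc1 (30) and Sema4b (26 and 28) held more. These counts describe letters and not binding.

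Of the 73 genes, 51 passed the filter and were compared. In model against control lungs 6 rose and 40 fell. Of these, 1 that rose, 3 that fell and also Sema3d (all named below) were bound to do so by the filter. Thus 11.8% rose, where 16.6% of all genes did, and 78.4% fell, where 56.5% of all genes did. The median log2 fold change was −0.94 over the guidance genes and −0.47 over all genes. With the median-ratio rescaling 9 rose (17.6%, against 31.8% of all genes) and 31 fell (60.8%, against 28.5% of all genes), and the median was −0.48 against 0.01. With M2 and Q1 left out together, which was decided on after seeing the data, 5 rose (9.8%, against 16% of all genes) and 39 fell (76.5%, against 50.8%). The 73 genes together held 520 to 557 TPM in QJHTD, 499.5 to 545 in model and 942 to 1070 in control libraries. The plot of single genes by family shows both scales.

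**Figure D1:**
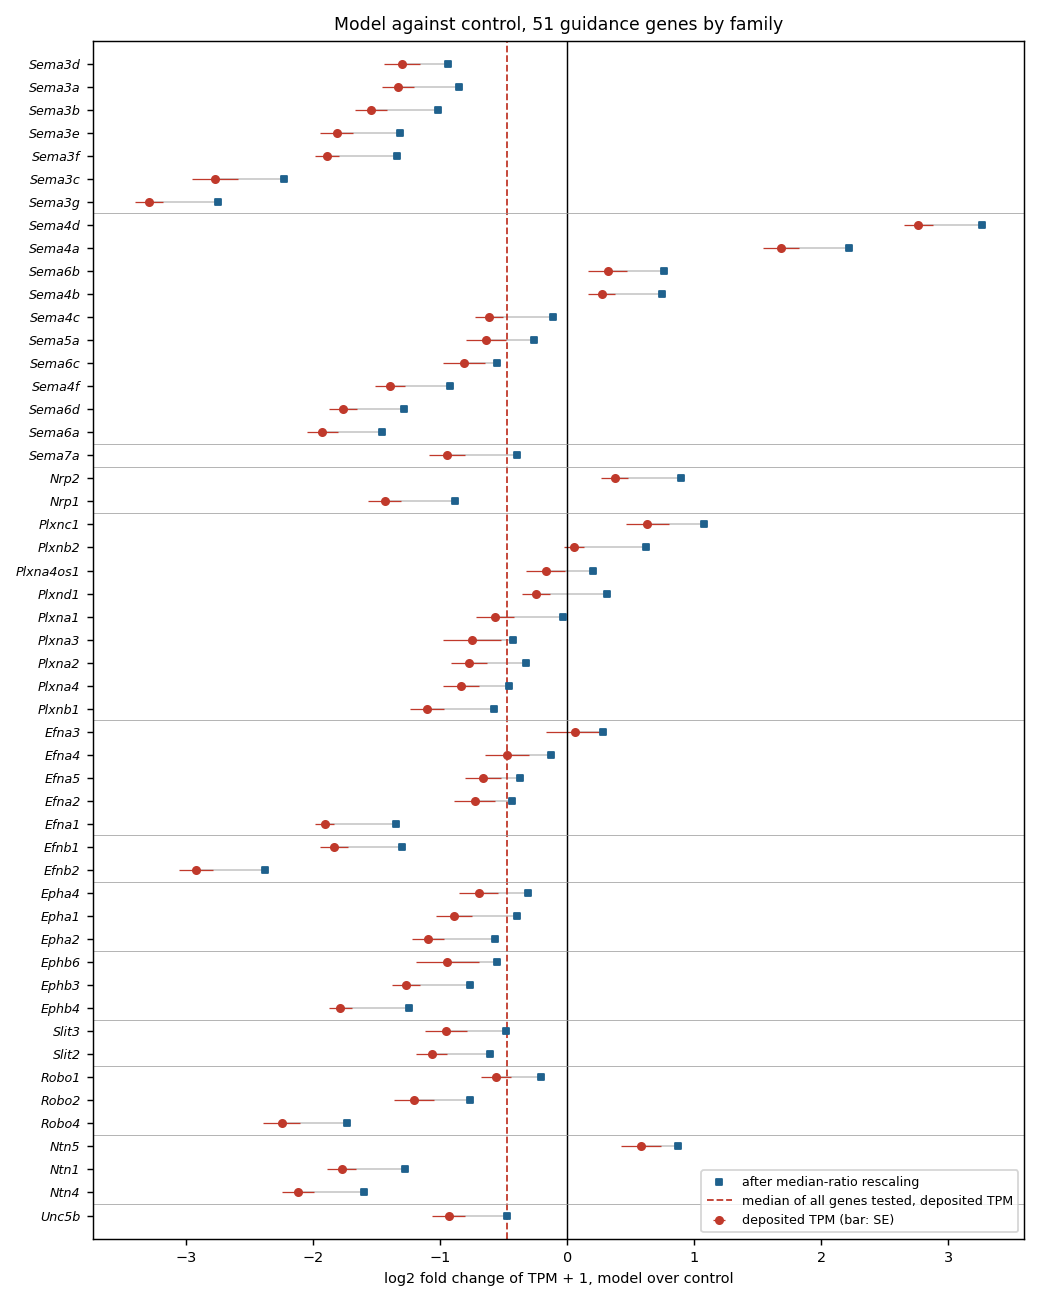
Log2 fold change of TPM + 1 in model over control libraries for the 51 guidance genes tested, grouped by family with lines between families. Red points with SE bars are deposited TPM, blue squares the same after median-ratio rescaling, and the dashed line is the median of all genes tested, −0.47; Sema4d lies farthest right at 2.76 and Sema3g farthest left at −3.29.

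Semaphorins are the largest family. The 7 secreted class 3 members all fell in model lungs (median log2 fold change −1.81), where 56.5% of all genes fell. The summed TPM of class 3 were 43.5 to 47.9 in model and 232 to 262 in control libraries. Sema3g, made by the endothelium of vessels, had 6.76, 6.06 and 6.33 TPM in the model libraries, against 78.64, 72.03 and 63.22 TPM in the control libraries. No model library came near a control library, and the control mean was 11.2 times the model mean. The log2 fold change was −3.29 ± 0.11 (SE, adjusted p = 1.2e-07 from limma), and −2.75 after rescaling. Sema3c, which guides cells of the cardiac outflow tract and vessels, had 8.68, 7.39 and 11.05 TPM in model libraries, against 59.48, 74.53 and 66.82 TPM in control libraries. It fell by 2.77 on the log2 scale, and M3 was the highest of the model libraries. Sema3f, a ligand of neuropilin 2, had 17.44, 15.73 and 14.73 TPM in model libraries, against 65.66, 63.80 and 56.16 TPM in control libraries (log2 fold change −1.89, adjusted p = 5.3e-07 from limma). It had the highest mean of class 3 in model libraries, at 16.0 TPM, while in control libraries Sema3g (71.3 TPM) and Sema3c (66.9 TPM) exceeded it (61.9 TPM). Sema3e, which binds plexin D1 without a neuropilin, had 3.85, 2.87 and 3.74 TPM in model libraries, against 16.23, 14.67 and 13.33 TPM in control libraries. Its log2 fold change was −1.81. In each of these genes every model library lay below the lowest control library. Sema3b had 7.20, 8.03 and 6.35 TPM in model libraries, against 22.99, 24.68 and 20.91 TPM in control libraries, a log2 fold change of −1.54. Sema3a, the ligand that makes growth cones collapse through neuropilin 1, had log2 fold change −1.33, and Sema3d −1.30. All 7 also fell under the 3 other scalings, and with the median-ratio rescaling 28.5% of all genes fell. The direction of Sema3d was fixed by the filter on deposited TPM, as described below. The 12 endothelial markers fell with a median of −2.59.

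The 12 membrane-spanning semaphorins of classes 4 to 6 split. Of 10 tested, 3 rose, 6 fell and 1 was not called, where 16.6% of all genes rose and 56.5% fell, so the share that fell is near that of all genes. Sema4d (CD100), carried by T cells and other leukocytes and a ligand of plexin B1 and of CD72, had 45.48, 42.13 and 41.41 TPM in the model libraries, against 6.62, 5.30 and 4.66 TPM in the control libraries. The model libraries lay within a narrow band far above the controls, with a mean 7.78 times as high. The log2 fold change was 2.76 ± 0.11 (SE, adjusted p = 2.6e-07 from limma), and 3.26 after rescaling. T-cell markers, of which 4 of 6 rose, summed to 51.4 to 68.6 TPM in model and 32.4 to 46.9 TPM in control libraries. Sema4a, made by dendritic cells and activated lymphocytes and known for T-cell priming, had 52.25, 53.44 and 38.20 TPM in model libraries, against 15.91, 12.43 and 14.14 TPM in control libraries. It rose by 1.68 ± 0.14 on the log2 scale (SE, adjusted p = 1.3e-05 from limma), and M3 was lower than the other model libraries. Dendritic cell markers, of which 2 of 4 tested fell, summed to 7.49 to 11 TPM in model and 21.8 to 31.5 TPM in control libraries. That count is near the share of all genes that fell (56.5%). Sema4b rose little, with 6.39, 5.50 and 7.01 TPM in model libraries, against 4.96, 5.06 and 5.07 TPM in control libraries. Its log2 fold change of 0.27 had an adjusted p of 0.0397 from limma, and leaving out any library but M2 brought this to between 0.0545 and 0.134. After rescaling it was 0.74 (adjusted p = 7.5e-05 from limma).

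The 6 that fell were Sema6a, Sema6d, Sema4f, Sema6c, Sema5a and Sema4c. Sema6a, a ligand of class A plexins, had 1.69, 1.96 and 2.27 TPM in model libraries, against 11.12, 10.37 and 9.36 TPM in control libraries (log2 fold change −1.93, adjusted p = 2.1e-06 from limma). Sema6d, of the same class, had 2.29, 2.19 and 2.54 TPM in model libraries, against 11.56, 10.03 and 9.52 TPM in control libraries, a log2 fold change of −1.76. The falls of Sema4c (−0.61) and Sema5a (−0.64) were near the median of all genes, and each was lost under rescaling (−0.11 and −0.26). Sema4c also shares 7.27% of its exon bases with D430040D24Rik on the opposite strand (mean 0.673 TPM in model, 2.08 TPM in control libraries). Its reads are thus uncertain. Sema6b had 4.77, 5.29 and 3.42 TPM in model libraries, against 3.63, 3.43 and 3.03 TPM in control libraries, with overlap, and was not called as deposited (log2 fold change 0.32) but was with rescaling (0.76, adjusted p = 0.00545 from limma). Sema7a, anchored to the membrane by a lipid and a ligand of plexin C1 and of integrins, had 21.88, 22.49 and 19.57 TPM in model libraries, against 38.88, 51.76 and 36.43 TPM in control libraries. Its change of −0.94 on the log2 scale (adjusted p = 3.3e-04 from limma) was lost under rescaling (−0.39, adjusted p = 0.0625 from limma).

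**Figure D2:**
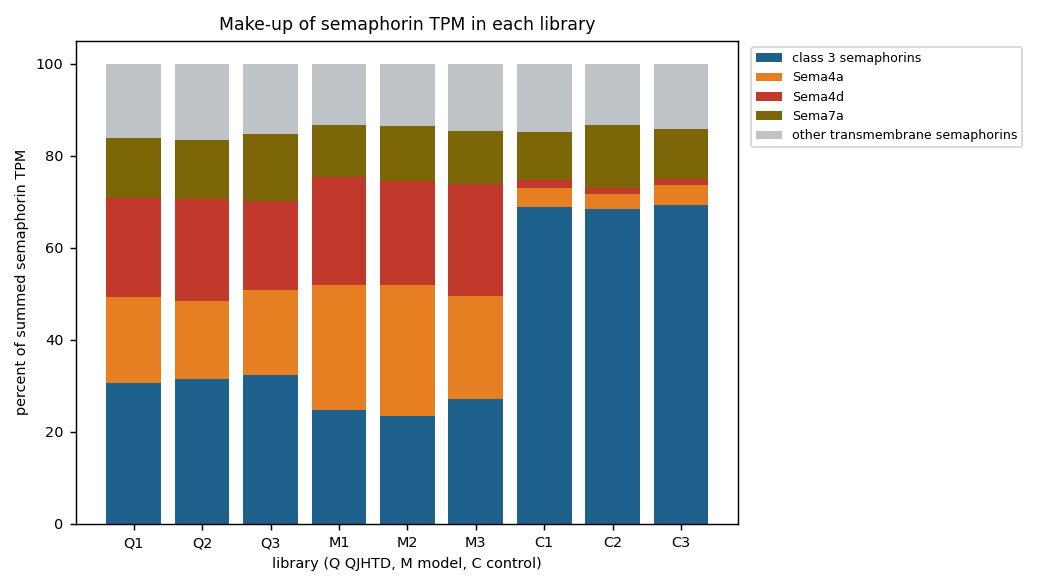
Percent of the summed TPM of the 20 semaphorin genes held by class 3 semaphorins, Sema4a, Sema4d, Sema7a and the other transmembrane semaphorins, as stacked bars for each library. Class 3 semaphorins hold 30.5 to 32.2% in QJHTD, 23.3 to 27.1% in model and 68.4 to 69.4% in control libraries.

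A share within the family does not change when all values of a library are multiplied by the same factor. Quantile normalization is not of that kind and can change it. Class 3 semaphorins held 23.3 to 27.1% of the semaphorin TPM in model and 68.4 to 69.4% in control libraries. Sema4a and Sema4d together, a pair chosen for its rise, held 46.8 to 51.2% in model and 4.63 to 6.05% in control libraries. Sema7a held 11.3 to 12.0% in model and 10.4 to 13.5% in control libraries, which overlapped. These shares were chosen after the values were seen and carry no test.

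The neuropilins parted. Nrp1, co-receptor of class 3 semaphorins and of VEGF-A in endothelium, had 18.67, 15.94 and 14.20 TPM in model libraries, against 51.39, 44.79 and 40.69 TPM in control libraries. It fell by 1.43 ± 0.13 on the log2 scale (SE, adjusted p = 1.7e-05 from limma), and by 0.88 after rescaling. Nrp2, co-receptor of Sema3f and of VEGF-C and also carried by lymphatic vessels and alveolar macrophages, had 14.78, 14.87 and 13.02 TPM in model libraries, against 12.17, 10.74 and 9.46 TPM in control libraries. The groups did not overlap, and it rose by 0.37 on the log2 scale (adjusted p = 0.0121 from limma, and 0.0555 without M2 and Q1) and by 0.90 after rescaling. Within a library, Nrp1 stood at 1.07 to 1.26 times Nrp2 in the model group and at 4.17 to 4.30 times in the control group. Markers of macrophages and monocytes, which rose (6 of 8), summed to 8911 to 10310 TPM in model and 3678 to 5136 TPM in control libraries. Markers of lymphatic endothelium, of which 2 of 4 tested fell and none rose, summed to 104 to 118 TPM in model and 156 to 197 TPM in control libraries. For all genes the shares were 16.6% rising and 56.5% falling, so the lymphatic count is near that of all genes.

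Of 9 plexin genes tested (with the antisense Plxna4os1), 1 rose, 5 fell and 3 were not called. Of all genes 16.6% rose and 56.5% fell, so the share of plexins that fell is near that of all genes. Plxnb2, a receptor of class 4 semaphorins with a wide range of cell types, was the most abundant guidance gene at 133.04, 122.73 and 125.90 TPM in model libraries and 131.45, 117.26 and 118.51 TPM in control libraries. These overlapped, the log2 fold change was 0.06 ± 0.08 (SE), and after rescaling Plxnb2 rose by 0.62 (adjusted p = 1.0e-04 from limma). It held 63.7 to 64.3% of plexin TPM in model and 54.7 to 56.8% in control libraries. Plxnd1, the receptor of Sema3e on endothelium and of semaphorins on macrophages, had 38.34, 42.56 and 42.52 TPM in model libraries, against 57.81, 42.89 and 47.34 TPM in control libraries. Its log2 fold change of −0.25 was not called (adjusted p = 0.0698 from limma, but 0.0236 without C2) and turned to 0.31 after rescaling (adjusted p = 0.043 from limma). Plxnc1, the receptor of Sema7a on monocytes and neutrophils, had 7.56, 4.89 and 5.72 TPM in model libraries, against 3.48, 4.15 and 2.96 TPM in control libraries. It rose by 0.63 on the log2 scale (adjusted p = 0.00778 from limma) and by 1.08 after rescaling. Plxnb1, the high-affinity receptor of Sema4d, fell by 1.10 on the log2 scale and Plxna1 to Plxna4 by 0.57 to 0.83. Of these, Plxna1 came to −0.04 after rescaling. The counting is not stated to use strand. Plxna4 shares 110 exon bases (0.78%) with the antisense Plxna4os3, which was listed at 0 TPM, and reads of that stretch cannot be told apart.

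**Figure D3:**
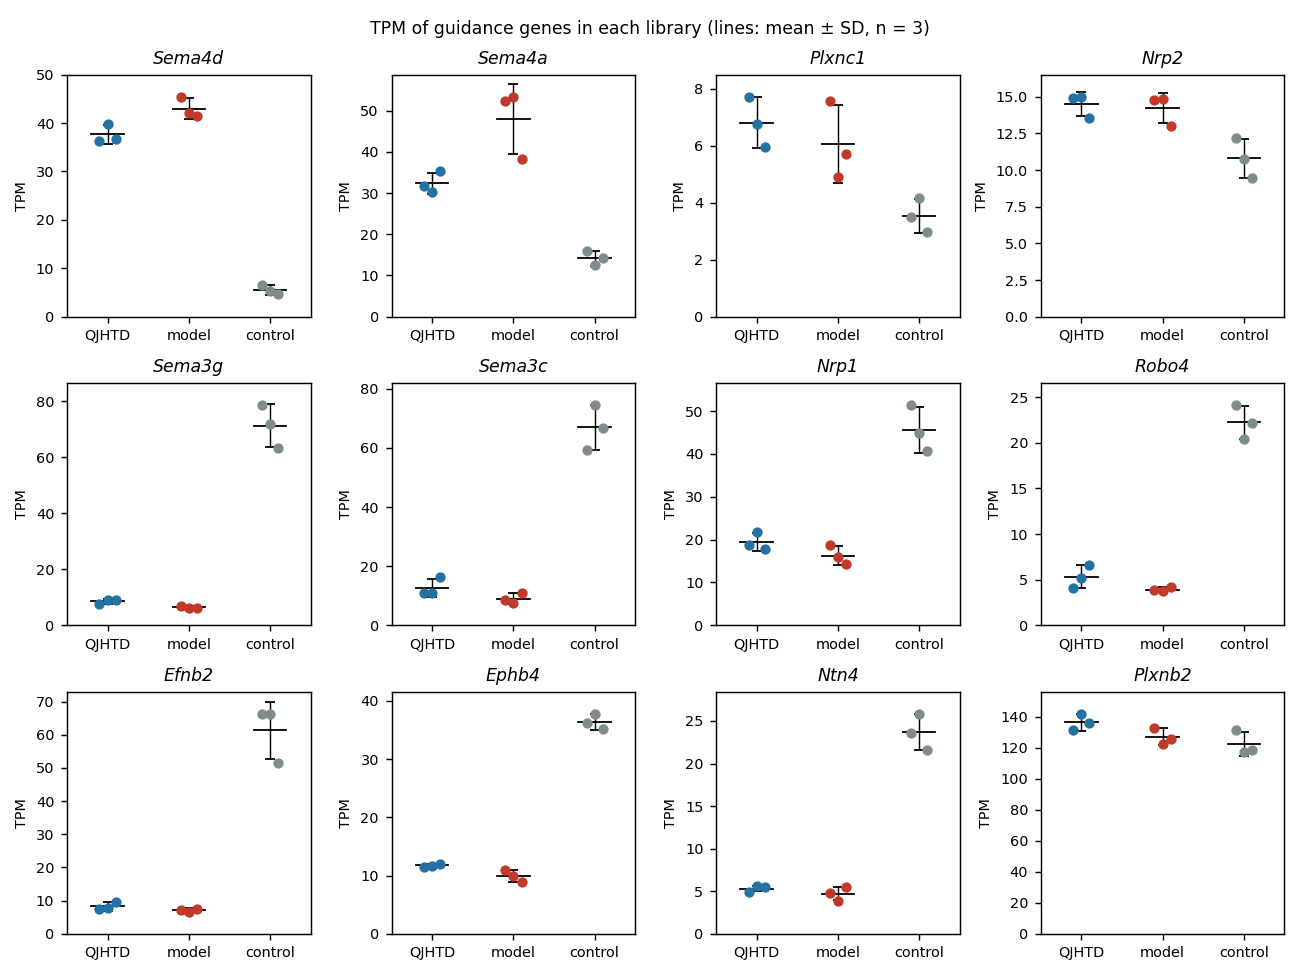
TPM of 12 guidance genes in each library (points), with the mean and SD of 3 libraries, for the QJHTD, model and control groups. Sema4d lies at 36.36 to 39.88 TPM in QJHTD, 41.41 to 45.48 in model and 4.66 to 6.62 in control libraries, and Sema3g at 7.55 to 9.15, 6.06 to 6.76 and 63.22 to 78.64.

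Of 13 ephrin and Eph receptor genes tested, 12 fell in the model group and none rose, where 56.5% of all genes fell. The 12 include Efna2 and Efna5, which passed the filter through control libraries alone. Efnb2, the ephrin that marks arterial endothelium, had 7.31, 6.70 and 7.57 TPM in model libraries, against 66.38, 66.12 and 51.50 TPM in control libraries. The control mean was 8.53 times the model mean, and the log2 fold change was −2.92 ± 0.13 (SE, adjusted p = 3.9e-07 from limma). Ephb4, its receptor on veins, had 10.90, 9.89 and 8.82 TPM in model libraries, against 36.19, 37.81 and 35.16 TPM in control libraries, a log2 fold change of −1.79 ± 0.09 (SE, adjusted p = 6.9e-07 from limma). Ephb4 stood at 1.17 to 1.49 times Efnb2 in the model and at 0.545 to 0.683 times in the control libraries. Markers of arterial endothelium, of which 5 of 5 fell, summed to 31.1 to 32.7 TPM in model and 148 to 184 TPM in control libraries. Those of venous endothelium, of which 3 of 4 fell and 1 rose, summed to 38.4 to 48.5 and 180 to 209 TPM. Efnb1, the other B-type ephrin tested, had 9.86, 8.62 and 9.10 TPM in model libraries, against 36.64, 38.64 and 31.20 TPM in control libraries (log2 fold change −1.84, adjusted p = 1.5e-06 from limma).

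Efna1, the most abundant ephrin and a ligand of the EphA2 receptor, had 25.62, 24.69 and 26.35 TPM in model libraries, against 96.04, 105.53 and 94.92 TPM in control libraries. It fell by 1.91 ± 0.07 on the log2 scale (SE, adjusted p = 2.0e-07 from limma). Epha2, a receptor of epithelium and vessels, had 7.91, 6.91 and 7.14 TPM in model libraries, against 18.01, 15.77 and 16.52 TPM in control libraries, a log2 fold change of −1.09. Of 5 A-type ephrins 4 fell, and Efna3, at 1.34, 0.25 and 1.00 TPM in model and 1.03, 0.68 and 0.50 TPM in control libraries, was not called. Efna4 fell by 0.47 (adjusted p = 0.0338 from limma). This was lost without M2, M3, C1 or C3, each left out alone (adjusted p 0.0531 to 0.137), and after rescaling (−0.13). Epha1, Epha4, Ephb3 and Ephb6 also fell, and Epha4 and Ephb6 did not pass after rescaling (adjusted p = 0.137 and 0.0528 from limma). Epha1 shares 236 exon bases with Zyx on the opposite strand, a gene that averaged 61.6 TPM in model against 77.6 TPM in control libraries, so its reads are uncertain. The reads of Efna3 are uncertain too. It shares 14.1% of its exon bases with Gm15998 on the opposite strand (mean 0.617 TPM in model, 1.58 TPM in control libraries).

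Slits and Robos fell in all 5 cases tested, where 56.5% of all genes fell, and the fall of Robo1 was lost after rescaling. Robo4, a Robo known from endothelium, had 3.81, 3.70 and 4.17 TPM in model libraries, against 24.14, 20.45 and 22.14 TPM in control libraries. Its log2 fold change was −2.25 ± 0.15 (SE, adjusted p = 2.8e-06 from limma), and −1.73 after rescaling. Again no library overlapped. Slit2, a secreted ligand of Robos, had 2.51, 2.08 and 2.59 TPM in model libraries, against 6.84, 6.03 and 5.46 TPM in control libraries, a log2 fold change of −1.07. Slit3, the more abundant of the Slits, had 3.25, 3.41 and 2.19 TPM in model libraries, against 6.84, 7.66 and 5.36 TPM in control libraries, a log2 fold change of −0.95. Robo2 fell by 1.20 and Robo1 by 0.56 (−0.20 after rescaling).

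Of 3 netrins tested, 2 fell and 1 rose, where 56.5% of all genes fell and 16.6% rose. The netrin that rose passed the filter through exposed libraries alone. Ntn4, a laminin-binding netrin of basement membranes, had 4.83, 3.86 and 5.45 TPM in model libraries, against 23.54, 25.86 and 21.64 TPM in control libraries (log2 fold change −2.12, adjusted p = 1.5e-06 from limma). Ntn1, the founding netrin and a ligand of Unc5b, had 3.81, 3.52 and 2.98 TPM in model libraries, against 14.42, 15.19 and 12.88 TPM in control libraries, a log2 fold change of −1.77. Ntn5 had 1.95, 2.13 and 1.24 TPM in model libraries, against 0.93, 0.84 and 0.74 TPM in control libraries (log2 fold change 0.58, adjusted p = 0.00845 from limma). Since it reached 1 TPM in no control library, its direction was fixed by the filter. Also, 23.4% of its exon bases lie opposite Sec1, which averaged 5.76 TPM in model against 2.72 TPM in control libraries, so the source of its reads is uncertain. Unc5b, the netrin receptor of vascular endothelium, had 2.57, 2.80 and 2.56 TPM in model libraries, against 6.46, 6.61 and 4.91 TPM in control libraries, a log2 fold change of −0.93. Efna2, Efna5 and Sema6c passed the filter through control libraries alone, so that their direction was fixed by the filter too. Without these 3 and Ntn5, 5 of 47 rose (10.6%, against 16.6% of all genes) and 37 fell (78.7%, against 56.5%). Sema3d, kept in that count, reached 1 TPM in no model library and, among exposed libraries, only in Q3 (1.34 TPM). It thus needed control libraries to pass, and its direction was fixed as well.

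**Figure D4:**
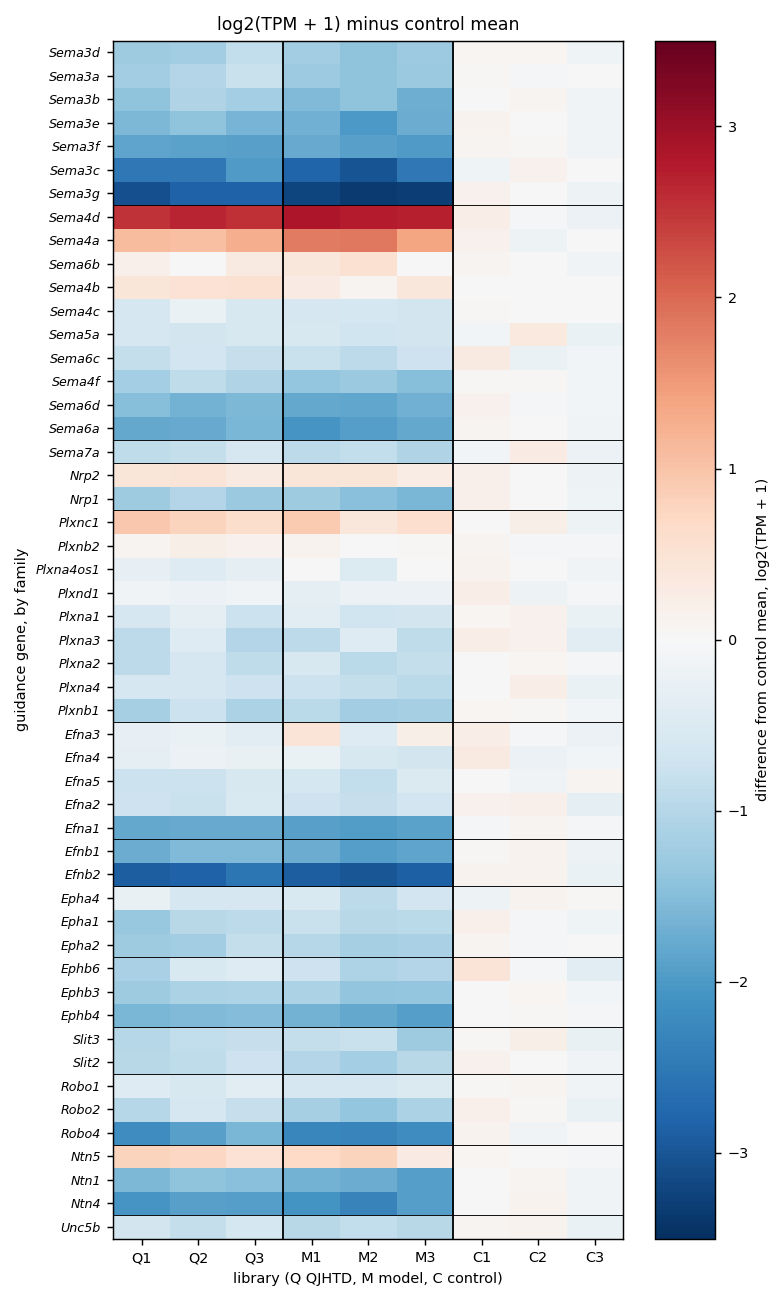
Log2(TPM + 1) of the 51 guidance genes tested in each library, minus the mean of the 3 control libraries, from blue (lower) to red (higher), with QJHTD, model and control libraries side by side and families separated by lines. Sema4d and Sema4a stand out in red and all 7 class 3 semaphorins in blue in the QJHTD and model libraries.

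Each of the 6 genes that rose, Ntn5 with the limit given above, also rose under quantile normalization, the median-ratio rescaling and TPM computed anew after removal of receptor segments, mitochondrial genes and hemoglobin. Of the 40 that fell, 28 fell under all of these scalings. The 12 others were Efna4, Efna5, Epha4, Ephb6, Plxna1, Plxna2, Plxna3, Robo1, Sema4c, Sema5a, Sema7a and Slit3. The sign of the log2 fold change differed between scalings for Plxna1, Plxna4os1 and Plxnd1. Calls that the rescaling added were the rises of Plxnb2, Plxnd1 and Sema6b.

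QJHTD libraries were set against model libraries to ask whether the decoction moved these genes. No guidance gene passed the adjusted p from limma, and 2 of all 16080 genes did (0.0124%). At an unadjusted p under 0.05, 9 were higher (17.6%, against 4.10% of all genes) and 1 was lower (1.96%, against 2.74% of all genes). The median log2 fold change was 0.15, against 0.05 for all genes, and it was above 0 for 41 of the 51 (80.4%), where it was for 62% of all genes. The count of 9 fell to 2 without Q2 (3.92%, against 2.31% of all genes), 2 without Q3 (3.92%, against 2.35%), 4 without M2 (7.84%, against 2.36%) and 5 without M3 (10%, against 4.99%), and in each of these fits the distance to all genes was smaller. It was 7 without M1 (14%, against 3.03% of all genes), 10 without Q1 (19.6%, against 6.66%), and 7 without M2 and Q1 together (13.7%, against 4.11%). Lower genes numbered 3 without M2 (5.88%, against 5.26% of all genes) and 3 without M2 and Q1 (5.88%, against 3.41%).

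Sema4a had the smallest p, with 31.74, 30.28 and 35.26 TPM in QJHTD libraries, against 52.25, 53.44 and 38.20 TPM in model libraries. Every QJHTD library was below every model library, and M3 was the nearest. The log2 fold change was −0.54 ± 0.14 (SE), with an unadjusted p of 0.00471 and an adjusted p of 0.545 from limma. Sema3g had 7.55, 9.11 and 9.15 TPM in QJHTD libraries, against 6.76, 6.06 and 6.33 TPM in model libraries. It was 0.38 ± 0.11 higher on the log2 scale (SE, adjusted p = 0.601 from limma), far below the control level of 63.22 TPM or more. Sema4f, a semaphorin of nervous tissue, had 2.82, 3.70 and 3.20 TPM in QJHTD libraries, against 2.37, 2.50 and 2.06 TPM in model libraries. Sema3b had 8.05, 10.53 and 9.46 TPM in QJHTD libraries, against 7.20, 8.03 and 6.35 TPM in model libraries. For Sema3b the lowest QJHTD library stood only just above M2.

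Sema3a had 3.39, 3.99 and 4.90 TPM in QJHTD libraries, against 3.17, 2.81 and 3.11 TPM in model libraries. Ntn1 had 4.13, 4.75 and 4.44 TPM in QJHTD libraries, against 3.81, 3.52 and 2.98 TPM in model libraries. In Sema4f, Sema3a and Ntn1 the groups did not overlap. The log2 fold changes of Sema4f, Sema3b, Sema3a and Ntn1 lay between 0.30 and 0.35, with adjusted p of 0.661 to 0.688 from limma. Ephb4, Robo2, Robo4 and Sema3c were the other genes with an unadjusted p under 0.05. Robo4 and Sema3c overlapped between the groups, and Q3 was their highest library, at 6.65 and 16.27 TPM. Sema4d had 36.36, 39.88 and 36.80 TPM in QJHTD libraries, against 45.48, 42.13 and 41.41 TPM in model libraries, without overlap, but a log2 fold change of only −0.19 ± 0.11 (SE, unadjusted p = 0.138 from limma). Endothelial markers, with a median log2 fold change of 0.29 and none of 12 called, moved the same way as the class 3 semaphorins (median 0.33), and neutrophil markers were at −0.77 with none of 7 called. Their part in these values was not tested.

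**Figure D5:**
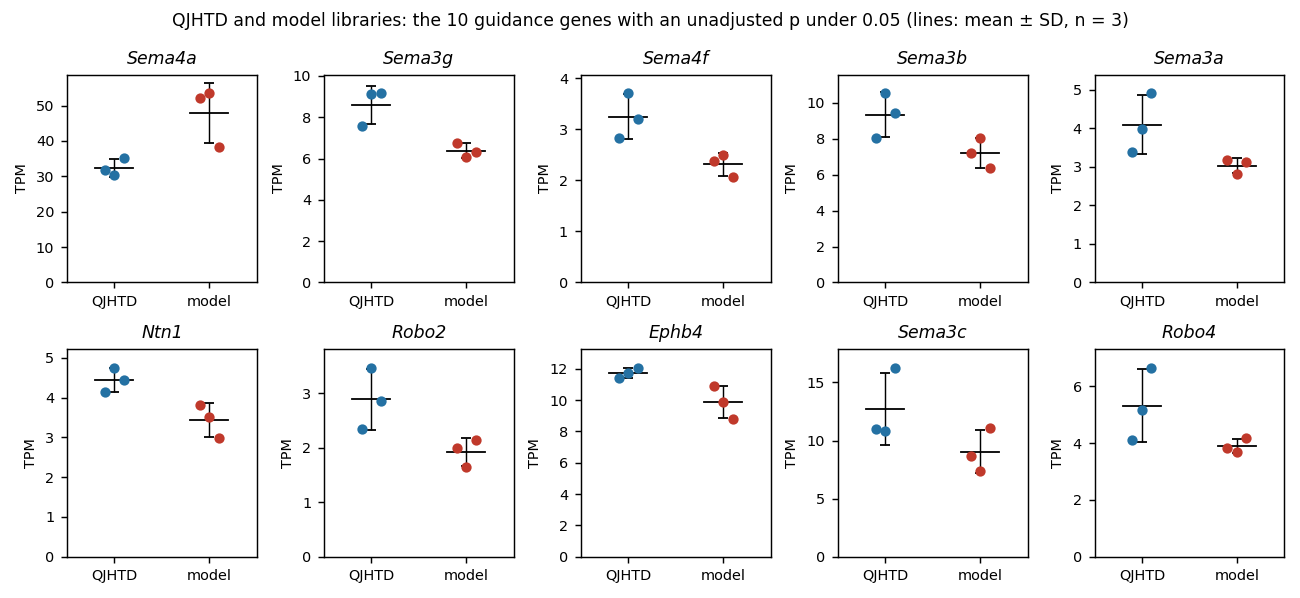
TPM of the 10 guidance genes with an unadjusted p under 0.05 in QJHTD (left, blue) and model (right, red) libraries, as points with the mean and SD of 3. Sema4a lies at 30.28 to 35.26 TPM in QJHTD and 38.20 to 53.44 TPM in model libraries, and the other 9 genes are higher in the QJHTD group.

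Within the semaphorins, class 3 members held 30.5 to 32.2% of TPM in QJHTD and 23.3 to 27.1% in model libraries, and Sema4a with Sema4d 37.9 to 40.3% and 46.8 to 51.2%. Neither pair of ranges overlapped. Nrp1 stood at 1.26 to 1.46 times Nrp2 in QJHTD and 1.07 to 1.26 times in model libraries, and these ranges overlap. These ratios were likewise chosen after the values were seen and carry no test.

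Against control libraries, 6 guidance genes rose in QJHTD libraries (17.0% of all genes did) and 39 fell (53.7% of all genes did), with a median log2 fold change of −0.80 against −0.44. With rescaling 9 rose (17.6%, against 31.8% of all genes) and 29 fell (56.9%, against 28.2%). The model and QJHTD comparisons share the control libraries, so their likeness is no separate evidence. Efna4 alone had another call, at 1.31, 1.57 and 1.46 TPM in QJHTD libraries, against 2.66, 1.55 and 1.74 TPM in control libraries (log2 fold change −0.27, adjusted p = 0.19 from limma). Sema4d stood at 2.58 on the log2 scale, Sema4a at 1.14, Efnb2 at −2.75 and Sema3g at −2.91, all called.

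Other genes of guidance signaling were taken from a list of 59 co-receptors, membrane partners, secreted ligands and intracellular proteins, of which 57 were tested. In model against control lungs 5 rose (8.77%, against 16.6% of all genes) and 38 fell (66.7%, against 56.5%), with a median of −0.69. With rescaling 16 rose (28.1%, against 31.8% of all genes) and 25 fell (43.9%, against 28.5%). The 5 that rose were Rnd1, Cd72, Fes, Adora2b and Draxin, of which Draxin reached 1 TPM in no control library (highest 0.45 TPM), so that the filter fixed its direction. Cd72, the receptor of Sema4d on B cells, had 25.16, 28.55 and 24.27 TPM in model libraries, against 15.16, 7.91 and 11.32 TPM in control libraries (log2 fold change 1.15, adjusted p = 0.00386 from limma). In QJHTD libraries it had 30.44, 59.63 and 51.31 TPM, and the log2 fold change of 0.78 over model libraries was not called (adjusted p = 0.67 from limma). Rnd1, a small GTPase that binds plexins, had 19.55, 20.09 and 9.48 TPM in model libraries, against 5.39, 5.49 and 4.40 TPM in control libraries, a log2 fold change of 1.45. Among those that fell, Kdr, the VEGF receptor that pairs with neuropilin 1, had 13.18, 12.78 and 11.55 TPM in model libraries, against 49.09, 40.34 and 43.97 TPM in control libraries. Dpysl2 (CRMP2), the cytoplasmic mediator of Sema3a, fell by 2.83 and Vegfa by 2.61 on the log2 scale. Neo1 (neogenin), a netrin receptor, fell by 1.24. B-cell markers summed to 244 to 263 TPM in QJHTD, 187 to 227 TPM in model and 36.1 to 77.3 TPM in control libraries, and their part in the Cd72 values was not tested. These genes were picked for the text after their values were seen.

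The 22 genes that did not pass the filter were low in every library. Sema4g reached 1.83 TPM in C1, Unc5c 1.41 TPM in C1, Epha3 1.16 TPM in C1, Epha7 1.13 TPM in C2 and Ephb2 1.10 TPM in M3. The highest values of the others were 0.99 TPM for Ephb1, 0.91 for Ntn3, 0.86 for Unc5cl, 0.64 for Plxnb3, 0.44 for Unc5a and 0.41 for Efnb3. Sema5b, Robo3, Epha5, Epha8, Unc5d, Plxna4os2, Slit1 and Dcc reached 0.01 to 0.35 TPM, and Epha6, Epha10 and Plxna4os3 were listed at 0. With no read counts, no limit can be set on these levels. In the family of netrin receptors Unc5b was thus the only one of 6 tested.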

How the data were processed

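Lung RNA was measured in 9 libraries, 3 per group. The authors trimmed reads with fastp, quantified genes with RSEM (the sources used here give no versions) and deposited TPM per gene and library. The labels name GRCh38.p6, a human build, while the identifiers are of mouse. All 73 guidance genes matched GENCODE M21 (GRCm38) by identifier and symbol. Deposited group means, each the average of 3 libraries, were left out. Depth is unknown, so precision rests on the spread between libraries.

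The 16080 genes that reached 1 TPM in 3 or more of 9 libraries were tested, 2-sided, on log2(TPM + 1). The tool was limma 3.58.1 (R 4.3.3), as a single fit of all 3 groups with the intensity trend switched on (6 residual and 2.88 prior degrees of freedom). Benjamini-Hochberg adjustment ran over all genes of a comparison. The fit was tested on simulated data. Tables were made with pandas 2.3.3 and numpy 2.4.6 in Python 3.11.15, and plots with matplotlib 3.10.9.

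The members and all lists were chosen with earlier results of these data known. Genes were named by a rule: in model against control, each riser, the 15 largest falls past the adjusted p without overlap and with a control mean of at least 1 TPM, and the most abundant of each family. For QJHTD against model these were the 6 smallest p, for QJHTD against control each call that differed. A few textbook vascular and immune members were added. Other names were chosen after their values were seen. Alternatives were no filter, a filter on a mean of 5 TPM, a pseudocount of 0.1, 3 rescalings (median-ratio, quantile, and TPM recomputed without 716 genes of segments, hemoglobin and mitochondria), 2 groups fitted alone, no trend, a replicate block, and each library left out. The recomputed TPM still held the club cell markers. A fit without M2 and Q1 was added later.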

Additional observations from a re-analysis of the deposited data

How the results depend on the processing

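Depth is unknown, so the limit on low genes cannot be given. Named genes kept direction and call in 663 of 695 alternative values. The call was lost in 26 and gained in 3, and 3 reversed, all of them Plxnd1 in model against control (0.31 with median-ratio rescaling, 0.047 with quantile normalization, 0.39 with recomputed TPM). In model against control, 10 genes rose with recomputed TPM, against 6, and 22 fell with a mean of at least 5 TPM, against 40. In QJHTD against control, 22 fell with a mean of at least 5 TPM and 24 with recomputed TPM, against 39. These filters also change how many genes are tested (29 and 55, against 51). Of other signaling genes, 16, 12 and 18 rose with median-ratio rescaling, quantile normalization and recomputed TPM, against 5, and 25 and 20 fell with the first and the last, against 38. For QJHTD against model, the genes higher at an unadjusted p were 5 with only 2 groups fitted, against 9, and 2 to 10 with each library left out. Those lower were 2 with median-ratio rescaling and 3 without M2 and Q1, against 1, and 1 to 3 with each library left out. No guidance gene passed the adjusted p there under any of the 19 settings. The median log2 fold change in model against control, −0.94, was −1.22 with a pseudocount of 0.1, −0.66 with no filter, −1.33 with a mean of at least 5 TPM, −0.48, −0.62 and −0.46 with the 3 rescalings, and −1.09 to −0.90 with each library left out. In QJHTD against control, −0.80, it was −1.10, −0.59, −1.15, −0.43, −0.54 and −0.34 in the same order, and −0.95 to −0.74 with each library left out. In QJHTD against model, 0.15, it was 0.092 with no filter. The summed TPM of guidance genes in model over control was 0.507 times as deposited and 0.795 times with recomputed TPM. The cause of these shifts, beyond the change in scale or filter itself, was not tested.

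Replicate numbers are shared between groups, but same-numbered libraries did not deviate together (correlations −0.103 to 0.089). Whether they share more than a number cannot be told from this. With the replicate block 5 genes rose and 40 fell in model against control, 6 rose and 38 fell in QJHTD against control, and none passed in QJHTD against model, with 6 higher and 1 lower at an unadjusted p.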
